A study of Mus musculus with 4 samples.

Results

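The naive state factors are 10 genes that hold mouse embryonic stem cells (ESCs) in the ground state of the preimplantation epiblast: Klf2, Klf4, Klf5, Esrrb, Tbx3, Tfcp2l1, Prdm14, Nr0b1, Nr5a2 and Tcl1. Every probe set annotated to 1 of these genes alone was taken, which gave 24 of the 45101 probe sets on the array, for 10 of the 18194 genes it names. They were read in cells sorted at day 4.5 from aggregates of Rax::GFP ESCs, a knock-in line in which the promoter of Rax, a homeobox gene of the rostral forebrain and eye field, drives green fluorescent protein. The aggregates were made by SFEBq, a serum-free floating culture in which dissociated ESCs reaggregate quickly and turn into neuroectoderm in a chemically defined medium without added growth factors. Rax::GFP- cells, the presumptive caudal population, and Rax::GFP+ cells, the rostral population, came from the same line and the same untreated culture. Each group had 2 Affymetrix arrays, called biological duplicates by the study, with RNA from cells pooled over many aggregates. The p-values measure only the spread between such duplicates.

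In ESCs these factors bind near one another's genes and near those of Pou5f1, Sox2 and Nanog. Leukaemia inhibitory factor (LIF) feeds the network through Stat3, and Wnt signaling feeds it by relieving repression by Tcf7l1. When ESCs leave the naive state the network is normally switched off before lineage genes come on, and Fgf5-expressing primed epiblast follows. Most of the 10 are DNA-binding transcription factors, whereas Nr0b1 is a nuclear receptor relative without the usual DNA-binding domain and Tcl1 is a coactivator of the kinase Akt. Outside ESCs, several of them are used again, for example Tbx3 and Nr5a2 in endoderm and Prdm14 in germ cells.

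The deposited values were log2 intensities per probe set, and the medians of the GFP- arrays were 5.84 and 5.86, those of the GFP+ arrays 5.89 and 5.88. A gene was called expressed in a group where its most expressed probe set lay above the array median on both arrays. Near background meant at or below the 95th percentile of 44 probe sets for olfactory receptors, a family not expected here, on every array. That percentile was 5.39 and 5.38 on the GFP- arrays and 5.19 and 5.38 on the GFP+ arrays, and 0 of the 44 lay above the median of any array. Differences are GFP- minus GFP+ on the log2 scale, and p-values come from limma, adjusted over all 45101 probe sets with a threshold of 0.05. The sort was visible in the data: Rax differed by -2.05 (adjusted p = 0.00785), Six3, another rostral gene, by -0.85 (adjusted p = 0.0389) and Irx3, a caudal gene, by 2.59 (adjusted p = 0.0175). The reference genes Gapdh and Actb differed by -0.02 and -0.01 as deposited, and both by 0.02 with each array centred on its median. Precision was limited by having 2 arrays a group: shuffling their labels in an exact permutation test would give a two-sided p of 0.333 at the least.

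The naive state factors were higher in GFP- cells. Of the 24 probe sets, 10 passed the threshold with higher values in GFP- cells and 0 with lower values, and at an unadjusted p under 0.05 the counts were 16 and 0. Over all probe sets on the array, 3.64% passed as higher and 3.82% as lower. An unadjusted p under 0.05, in either direction, was found at 12023 of the 45101. Taken by the most expressed probe set, 6 of the 10 genes passed as higher, Klf2, Klf5, Tbx3, Tfcp2l1, Nr0b1 and Tcl1, and 0 as lower, where 5.4% of all genes passed as higher and 2.63% as lower. Esrrb and Nr5a2 passed at a less expressed probe set, so that 8 genes had a probe set that passed (6.64% of all genes had one), and Klf4 and Prdm14 had none. With each gene taken as the average over its probe sets, 9 of the 10 passed as higher, all but Klf4, where 8.96% of all genes did. Among the 9 was Prdm14, whose single probe set averaging cannot change and which was near background. Its difference stayed at 0.64, with an adjusted p of 0.0343 in limma over 18194 genes and 0.0693 over all probe sets. The median log2 difference over the 10 genes was 1.38 by the most expressed probe set, against 0.05 over all genes, and 0.82 by the average over probe sets. Over the 24 probe sets it was 0.53, against 0.03 over all probe sets.

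Both GFP- arrays lay above both GFP+ arrays at 18 of the 24 probe sets (32.5% of all probe sets did so) and at the most expressed probe set of each of the 10 genes (38.4% of all genes). The opposite order was found at 0 of the 24, against 24.9% of all probe sets. In RNA of bulk sorted cells, fewer cells that express a gene and less RNA of it per cell cannot be told apart. All calls were lost when either GFP- array was left out, for these genes and over the whole array. They were also all lost with the replicate number fitted as a block, a pairing that no label states. The median difference over the 10 genes was 1.43 without GFP+ replicate 1 and 1.44 without GFP+ replicate 2. It was 1.51 without GFP- replicate 1 and 1.25 without GFP- replicate 2.

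**Figure D1:**
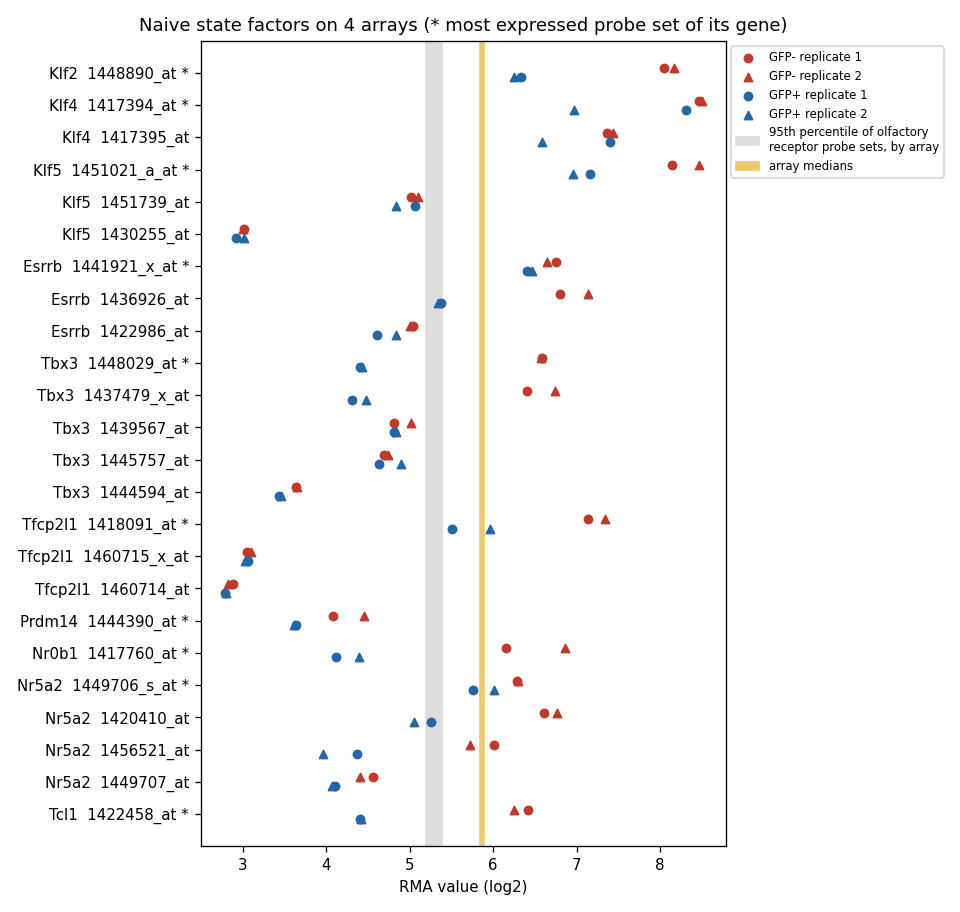
Log2 RMA value (horizontal axis) of each of the 24 probe sets on the 2 GFP- arrays (red) and the 2 GFP+ arrays (blue), with circles for replicate 1 and triangles for replicate 2. The grey band spans the 95th percentiles of olfactory receptor probe sets and the yellow band the array medians. Klf2, Klf4, Klf5 and Esrrb keep a probe set right of the yellow band on all arrays, while Tbx3, Nr0b1 and Tcl1 have their highest probe set right of it in GFP- cells and left of the grey band in GFP+ cells.

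By level, 9 of the 10 genes were expressed in GFP- cells, all but Prdm14, and 4 were expressed in GFP+ cells, Klf2, Klf4, Klf5 and Esrrb. Of all genes on the array, 62.8% were above the median on both GFP- arrays and 60.2% on both GFP+ arrays. Tfcp2l1 and Nr5a2 each had 1 GFP+ array above the median and 1 below it. Tbx3, Nr0b1, Tcl1 and Prdm14 lay in GFP+ cells below the 95th percentile of the olfactory receptor probe sets on both arrays, so their measured difference is one against a background-level signal and not a ratio of transcript amounts. The same holds at the Nr5a2 probe set 1456521_at, and the Nr5a2 probe set 1420410_at and the Esrrb probe set 1436926_at were above that percentile on 1 of the 2 GFP+ arrays. No fold is given at these probe sets. A total of 10 probe sets were near background on all 4 arrays, and none of these passed the threshold. They were 3 of Tbx3, 2 of Klf5, 2 of Tfcp2l1 and 1 each of Esrrb, Nr5a2 and Prdm14.

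Klf2, Klf4 and Klf5 are zinc finger proteins that bind the same short CACCC-type sites and can stand in for one another in ESCs. Klf2, the member most tied to the ground state kept by blocking Mek, had log2 values of 8.05 and 8.17 in GFP- cells, against 6.33 and 6.25 in GFP+ cells. Its level was thus at the 73.1 and 74.0 percentiles of the GFP- arrays and at the 55.5 and 55.1 percentiles of the GFP+ arrays, above the median on every array with no overlap of the groups. The log2 difference was 1.82 (SE 0.08, adjusted p = 0.00551), or 3.53-fold on the linear scale.

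Klf5 had 3 probe sets. The most expressed, 1451021_a_at, had values of 8.14 and 8.47 in GFP- cells, against 7.16 and 6.96 in GFP+ cells. Both groups were above the array median and did not overlap, and the difference of 1.24 (SE 0.14, adjusted p = 0.0215) was 2.37-fold. The call was lost with GFP+ replicate 1 left out (adjusted p = 0.0655) and with GFP+ replicate 2 left out (adjusted p = 0.0522). The other Klf5 probe sets, 1451739_at and 1430255_at, were near background on all arrays and differed by 0.11 and 0.04, neither past the threshold.

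Klf4, a Stat3 target and one of the original reprogramming factors, did not pass. Its most expressed probe set, 1417394_at, had values of 8.47 and 8.50 in GFP- cells, against 8.31 and 6.97 in GFP+ cells. GFP+ replicate 1 was close to the GFP- arrays and GFP+ replicate 2 was well below them, so the mean was 8.48 ± 0.02 in GFP- cells and 7.64 ± 0.94 in GFP+ cells (SD, n = 2 each). The difference was 0.84 with a 95% interval of -0.35 to 2.04 (adjusted p = 0.32). It was 1.51 without GFP+ replicate 1 (adjusted p = 0.0344) and 0.17 without GFP+ replicate 2 (adjusted p = 0.326). The second probe set, 1417395_at, had the same order of arrays within GFP+ cells, with 7.36 and 7.44 in GFP- cells, against 7.40 and 6.58 in GFP+ cells, and here the groups overlapped (difference 0.42, adjusted p = 0.425). Klf4 was expressed on every array at both probe sets.

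The gap between the GFP+ replicates at Klf4 was among the largest on this pair of arrays. At 1417394_at it was 1.34, the 23rd largest in size of 45101, and at 1417395_at it was 0.82. A gap over 1 was found at 0.0266% of probe sets between the GFP- arrays and at 0.264% between the GFP+ arrays. Immediate early genes, a class transcribed within minutes of a stimulus, moved along with it: 13 of 14 were higher on GFP+ replicate 1 than on GFP+ replicate 2, with a median gap of 0.76. Between the GFP- replicates 10 of the 14 were higher on replicate 1, with a median gap of 0.16. Fos, a subunit of AP-1, had values of 10.58 and 9.13 in GFP- cells, against 12.60 and 10.69 in GFP+ cells. Egr1, an early growth response zinc finger factor, had 10.41 and 9.92 in GFP- cells, against 12.19 and 10.65 in GFP+ cells. This list was drawn up after the values of Klf4 had been seen, 0 of its 14 genes passed between the groups in limma (0 at an unadjusted p under 0.05, and 4 as lower in GFP- cells without GFP+ replicate 2), and its part in the Klf4 values was not tested.

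**Figure D2:**
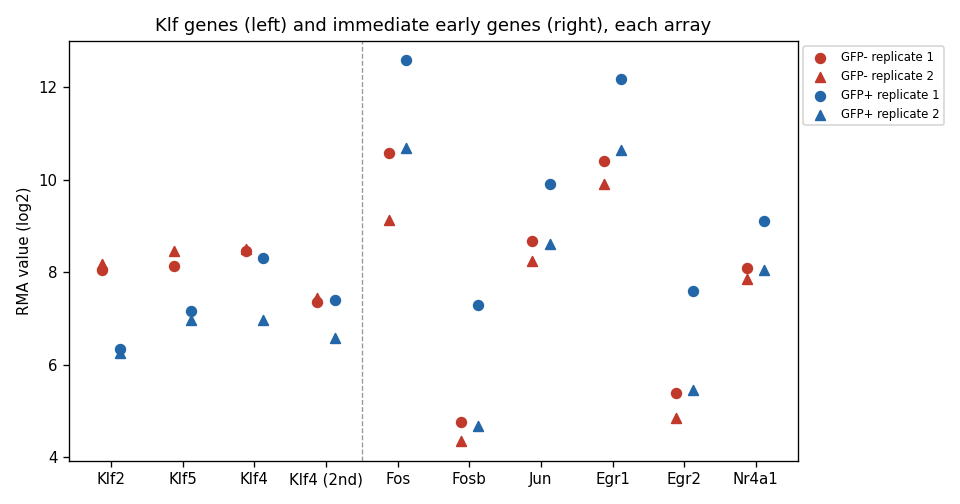
Log2 RMA value (vertical axis) of the most expressed probe set of Klf2, Klf5 and Klf4, the second probe set of Klf4 and, right of the dashed line, 6 immediate early genes on the 2 GFP- arrays (red) and the 2 GFP+ arrays (blue). These 6 had the largest gaps between the GFP+ replicates among the 14 listed, whose median gap was 0.76. Egr3 (-0.05) and Btg2 (0.05), not shown, had almost none. GFP+ replicate 1 (blue circles) lies above GFP+ replicate 2 (blue triangles) by 1.34 at Klf4, whereas Klf2 has 6.33 and 6.25 on them.

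Of 12 measured relatives in the Klf family, 1 passed (7 at an unadjusted p under 0.05), and their differences ran from -0.58 to 1.45. That one was Klf9, a hormone-responsive factor not counted with the naive state, at 11.20 ± 0.15 in GFP- cells and 9.75 ± 0.08 in GFP+ cells (SD, n = 2 each; adjusted p = 0.00938). Klf3, a repressor of the same family, differed by -0.58 (adjusted p = 0.052).

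Since Klf proteins recognise CACCC, the promoters of the members were searched for CACCC and its reverse complement GGGTG within 300 bases, 250 before and 50 after each transcript start in RefSeq (GRCm38.p6). Of the 10 members, 7 had a promoter there, with 9 starts in all. A match was in 7 of the 9, where 57.5% of all 32851 promoters held one, and the starts without were that of Klf4 and one of the 2 of Nr5a2. A match is a description of the letters and not of binding. The 250 bases before the start are shown, with the matches in capitals, for each member with a promoter that passed at its most expressed probe set (Klf2, Tfcp2l1, Nr0b1 and Tcl1), and for Klf4, the one Klf factor that did not. They lie at chr8:72318812-72319061 on the plus strand for Klf2, chr1:118627695-118627944 on the plus strand for Tfcp2l1, chrX:86191525-86191774 on the plus strand for Nr0b1, chr12:105222738-105222987 on the minus strand for Tcl1 and chr4:55532476-55532725 on the minus strand for Klf4.
Klf2: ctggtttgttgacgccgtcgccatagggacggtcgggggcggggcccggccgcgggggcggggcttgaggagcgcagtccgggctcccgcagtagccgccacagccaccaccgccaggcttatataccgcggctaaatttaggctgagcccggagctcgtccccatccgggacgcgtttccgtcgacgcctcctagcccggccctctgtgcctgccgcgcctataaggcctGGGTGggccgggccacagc
Tfcp2l1: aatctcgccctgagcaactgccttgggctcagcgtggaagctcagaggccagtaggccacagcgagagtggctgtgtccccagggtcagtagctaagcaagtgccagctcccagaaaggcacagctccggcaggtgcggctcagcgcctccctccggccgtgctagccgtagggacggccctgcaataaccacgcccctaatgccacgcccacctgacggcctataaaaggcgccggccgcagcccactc
Nr0b1: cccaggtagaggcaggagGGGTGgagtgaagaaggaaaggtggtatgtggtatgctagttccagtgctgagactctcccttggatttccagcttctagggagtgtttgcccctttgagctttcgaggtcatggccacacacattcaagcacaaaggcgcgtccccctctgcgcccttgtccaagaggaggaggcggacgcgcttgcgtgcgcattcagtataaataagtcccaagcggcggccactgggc
Tcl1: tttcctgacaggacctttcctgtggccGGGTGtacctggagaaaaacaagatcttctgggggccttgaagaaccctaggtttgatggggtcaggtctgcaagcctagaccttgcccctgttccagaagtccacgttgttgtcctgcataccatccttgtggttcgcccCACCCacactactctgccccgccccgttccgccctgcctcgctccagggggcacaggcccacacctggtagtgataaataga
Klf4: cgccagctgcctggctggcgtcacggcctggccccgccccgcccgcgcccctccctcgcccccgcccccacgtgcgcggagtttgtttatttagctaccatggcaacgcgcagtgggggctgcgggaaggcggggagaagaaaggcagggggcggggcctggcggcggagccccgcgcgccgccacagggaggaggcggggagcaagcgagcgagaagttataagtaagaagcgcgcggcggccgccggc
In the bases shown, the Klf2 match began 19 bases before the start, that of Nr0b1 232 bases before it and those of Tcl1 223 and 82 bases before it. Tfcp2l1, which passed, and Klf4, which did not, both had 0 in these bases. The match of Tfcp2l1 lay after its start, and Nr0b1 had further matches after its own. Other motifs were searched on both strands of the same windows. AAGGTCA, the extended half-site of Esrrb and Nr5a2, was in 0 of the 9 promoters (4.72% of all), and AGGTGTGA, a T-box site, was in 0 (1.28% of all). TTCNNNGAA, the Stat site, was in 1, a start of Esrrb (8.3% of all).

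Tfcp2l1 and Esrrb are the members through which LIF and Wnt signals mainly act, the first a grainyhead-family target of Stat3 and the second an orphan nuclear receptor kept down by Tcf7l1. Tfcp2l1 had values of 7.14 and 7.34 in GFP- cells, against 5.51 and 5.96 in GFP+ cells, at 1418091_at. The groups did not overlap, GFP- cells were above the array median, and in GFP+ cells 1 array was above it and 1 below. The difference was 1.51 (SE 0.18, adjusted p = 0.0224), or 2.85-fold. The other Tfcp2l1 probe sets, 1460715_x_at and 1460714_at, were among the dimmest on the array, between the 2.4 and 6.6 percentiles, and differed by 0.03 and 0.06.

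Esrrb gave different answers by probe set. At 1436926_at it had 6.80 and 7.14 in GFP- cells, against 5.37 and 5.34 in GFP+ cells, a difference of 1.61 (SE 0.13, adjusted p = 0.0116). This call was lost without GFP+ replicate 1 (adjusted p = 0.0547). At 1441921_x_at, which had the highest mean of the 3, values were 6.75 and 6.65 in GFP- cells, against 6.41 and 6.46 in GFP+ cells, a difference of 0.26 (95% interval 0.05 to 0.47, adjusted p = 0.126). The suffix x marks probe sets with probes that also match other sequences. That Esrrb counted as expressed in GFP+ cells rested on this probe set alone. The third, 1422986_at, was near background and differed by 0.29 (adjusted p = 0.175).

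Tbx3, a T-box factor that in ESCs acts downstream of PI3-kinase and can also turn on endoderm genes, had 5 probe sets. At 1448029_at it had 6.59 and 6.57 in GFP- cells, against 4.40 and 4.43 in GFP+ cells. It was above the median of both GFP- arrays (59.6 and 59.1 percentiles) and near the level of the olfactory receptors on both GFP+ arrays (27.7 and 27.4 percentiles). The difference was 2.16 (SE 0.07, adjusted p = 0.00549), and it ran from 2.15 to 2.18 with any 1 array left out. A second probe set, 1437479_x_at, gave 2.18 (SE 0.14, adjusted p = 0.00785). The other 3 were near background on all arrays, with differences of 0.08, -0.05 and 0.20 and none past the threshold.

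Nr0b1 and Nr5a2 are nuclear receptors that meet at Pou5f1: Nr5a2 binds and activates its regulatory regions, and Nr0b1 restrains the activity of several pluripotency factors. Nr0b1 had values of 6.15 and 6.86 in GFP- cells, against 4.12 and 4.39 in GFP+ cells, where it was at background. The groups did not overlap, although the GFP- replicates were 0.71 apart. The difference was 2.24 (SE 0.26, 95% interval 1.55 to 2.94, adjusted p = 0.0218), and the call was lost without GFP+ replicate 1 (adjusted p = 0.0876).

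Nr5a2 passed at 2 of its 4 probe sets. At 1420410_at values were 6.61 and 6.77 in GFP- cells, against 5.26 and 5.05 in GFP+ cells, with a difference of 1.53 (SE 0.11, adjusted p = 0.00976). At 1456521_at they were 6.01 and 5.72 in GFP- cells, against 4.37 and 3.96 in GFP+ cells, with a difference of 1.70 (SE 0.18, adjusted p = 0.0181). Neither pair of groups overlapped, and the GFP+ values were at background on 1 array at the first probe set and on both at the second. The most expressed probe set, 1449706_s_at, whose suffix marks probes shared by several transcripts, had 6.28 and 6.30 in GFP- cells, against 5.76 and 6.01 in GFP+ cells, and its difference of 0.41 did not pass (adjusted p = 0.102). The fourth, 1449707_at, was near background and differed by 0.40 (adjusted p = 0.0705).

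Tcl1 had values of 6.42 and 6.25 in GFP- cells, against 4.40 and 4.41 in GFP+ cells. It was expressed in GFP- cells and at the level of the olfactory receptors in GFP+ cells, and the difference of 1.94 (SE 0.09) passed (adjusted p = 0.00551). The 4 measured relatives, Tcl1b1, Tcl1b3, Tcl1b4 and Mtcp1, differed by -0.32 to 0.11, and 0 passed in limma (1 at an unadjusted p under 0.05).

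Prdm14, a PR domain protein that in ESCs holds down Fgf signaling and DNA methyltransferases, was the one gene near background on every array. Its values were 4.08 and 4.45 in GFP- cells, against 3.63 and 3.61 in GFP+ cells, at the 21.6 and 27.8 percentiles of the GFP- arrays and at the 15.7 and 14.4 percentiles of the GFP+ arrays. The groups did not overlap, but the difference of 0.64 (95% interval 0.27 to 1.01, adjusted p = 0.0693) did not pass. Expression of Prdm14 was therefore not detectable above the olfactory receptor level with this single probe set. Of 3 measured relatives, 2 passed in the opposite direction. They were Prdm16, a gene of neural progenitors, at -2.21 (adjusted p = 0.00551) and Prdm1, which represses somatic genes in germ cells, at -0.60 (adjusted p = 0.0327). In GFP- cells Prdm1 (5.25 and 5.29) lay below the olfactory receptor level. Prdm16 (5.39 and 5.44) was not above that level on both GFP- arrays.

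**Figure D3:**
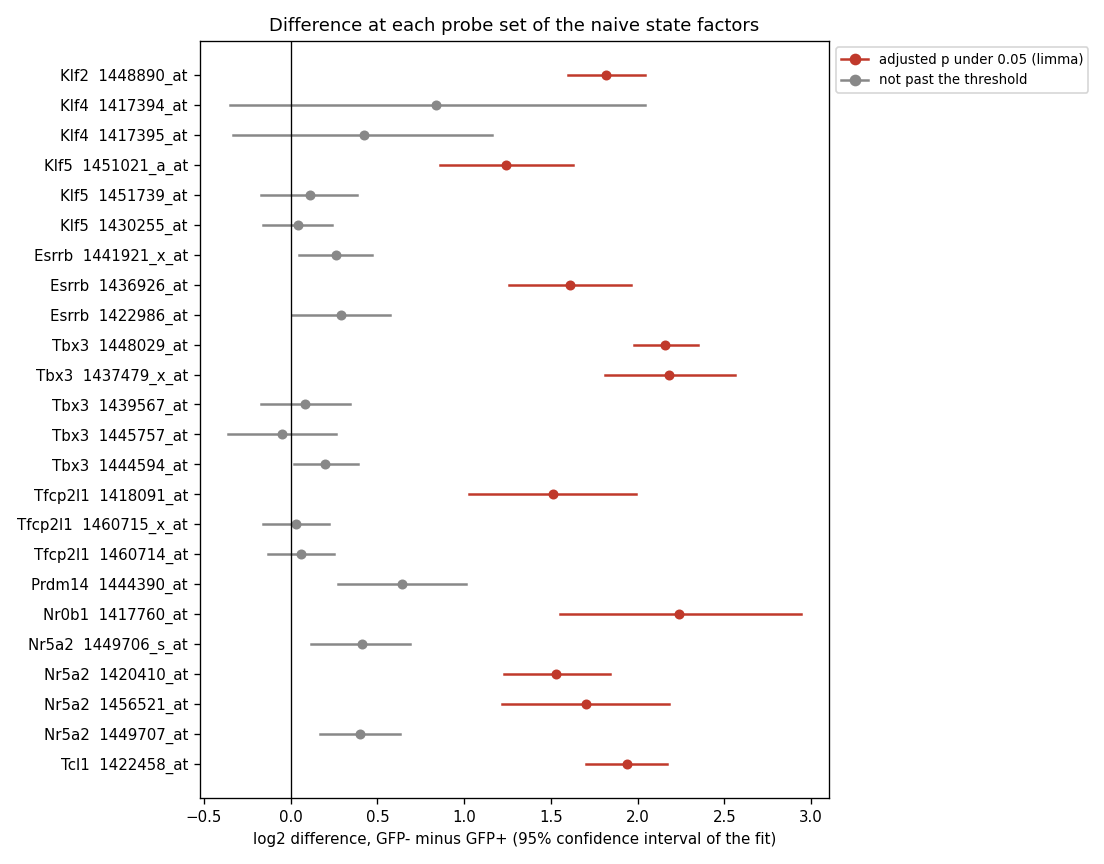
Log2 difference, GFP- minus GFP+, at each of the 24 probe sets (points) with the 95% confidence interval of the limma fit (lines), in red where the adjusted p was under 0.05. The 10 red probe sets lie between 1.24 (Klf5) and 2.24 (Nr0b1), and both Klf4 intervals cross 0.

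Of 31 measured relatives of the members, 1 passed as higher and 2 as lower, where 5.4% and 2.63% of all genes did. The median difference of the relatives was 0.01. At an unadjusted p under 0.05, 8 were higher and 6 lower. The counts that passed were 4 and 4 with Storey's q-value and 5 and 4 with an intensity trend in the fit. The 6 other T-box genes ran from -0.07 to 0.64 with 0 past the threshold in limma (3 at an unadjusted p under 0.05), and Tfcp2 and Ubp1, the nearest relatives of Tfcp2l1, differed by at most 0.01 in size. Esrra and Esrrg, Nr0b2, and Nr5a1 did not pass either.

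**Figure D4:**
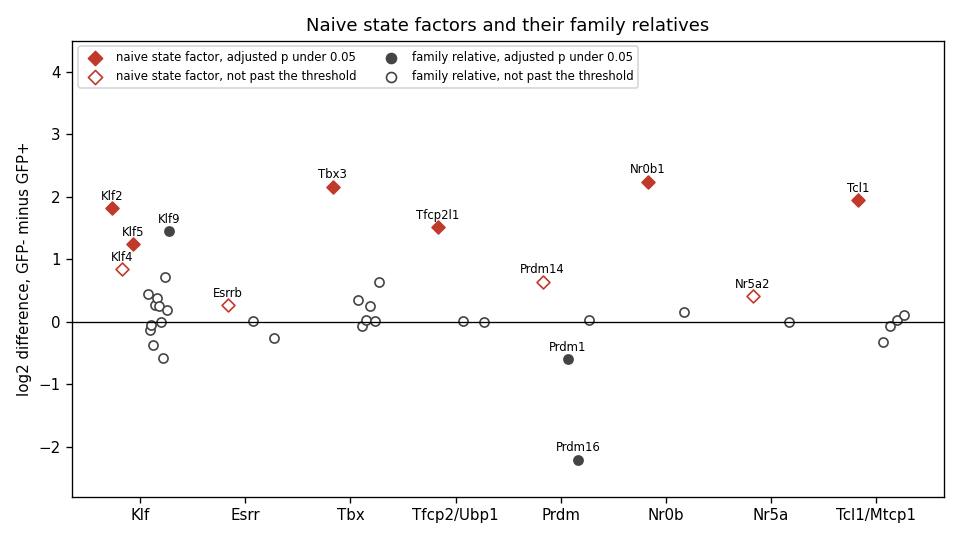
Log2 difference, GFP- minus GFP+ (vertical axis), of the 10 naive state factors (red diamonds) and their 31 measured relatives (grey circles) by family, at the most expressed probe set and filled where the adjusted p was under 0.05. Filled relatives are Klf9 at 1.45, Prdm1 at -0.60 and Prdm16 at -2.21.

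Among 4 core partners of the network, 2 passed as higher and 0 as lower, with a median of 1.44. Nanog, a homeobox factor that acts upstream of Esrrb, had values of 9.46 ± 0.17 in GFP- cells and 5.95 ± 0.41 in GFP+ cells (SD, n = 2 each), a difference of 3.51 (adjusted p = 0.00761). Pou5f1, which encodes Oct3/4, had 11.38 ± 0.06 in GFP- cells and 8.70 ± 0.03 in GFP+ cells, a difference of 2.67 (adjusted p = 0.0044). Sox2 and Sall4, which neural progenitors or other embryonic cells also use, did not pass, at -0.24 (adjusted p = 0.148) and 0.21 (adjusted p = 0.153). Among 10 other naive state markers, 4 passed as higher and 0 as lower, with a median of 0.41. Dppa5a, an RNA-binding protein of pluripotent cells, differed by 3.01, Zfp42, the Rex1 zinc finger factor, by 2.89 and Fbxo15, an Oct3/4 target, by 2.63, whereas the demethylase Tet2 (-0.38, adjusted p = 0.058) and the phosphatase Alpl (-0.46, adjusted p = 0.0769) did not pass. With Storey's q-value, with an intensity trend and with averaging over probe sets, 2 of the 10 markers passed as lower.

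Upstream, 2 of 11 signal input genes passed as higher and 0 as lower, with a median of 0.02. Both were subunits of the LIF receptor: Lifr differed by 1.12 (adjusted p = 0.0138) and Il6st, which encodes gp130, by 0.63 (adjusted p = 0.0257). The count was 1 without GFP+ replicate 1, and 1 higher and 1 lower with genes averaged over their probe sets. Stat3 itself differed by 0.02 (adjusted p = 0.927) and Socs3, a Stat3 target that feeds back on the receptor, by -0.16 (adjusted p = 0.488). Among 6 repressors and exit genes 0 passed in limma (1 at an unadjusted p under 0.05, as lower), including Tcf7l1 (-0.21, adjusted p = 0.184) and the nuclear receptor Nr6a1 (-0.10, adjusted p = 0.447). Their median was -0.05.

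Genes of the primed epiblast, the state after the naive one, were also higher in GFP- cells: 5 of 8 passed and 0 were lower, with a median of 0.80. Fgf5 had 10.15 ± 0.09 in GFP- cells and 6.66 ± 0.04 in GFP+ cells (SD, n = 2 each), a difference of 3.49 (adjusted p = 0.0044), Foxd3 differed by 1.93 and the kinase gene Pim2 by 1.33. Otx2 (-0.06, adjusted p = 0.7) and Pou3f1 (0.41, adjusted p = 0.0514) did not pass. Without GFP+ replicate 1 the primed count was 2.

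Among markers of other cells, those of endoderm moved with the naive state factors, and early neural and rostral ones moved the other way. Of 14 endoderm markers 11 passed as higher in GFP- cells and 0 as lower, with a median of 2.08, and their mean level was 8.17 and 8.36 on the GFP- arrays and 6.14 and 6.60 on the GFP+ arrays. Sox17 differed by 3.09, Cubn by 2.87 and Ttr by 2.48, and 13 of the 14 were above the array median in GFP- cells against 7 in GFP+ cells. Early neural markers fell in 4 of 6 cases, among them Pax6 (-1.45) and Hes5 (-1.07), and rostral markers in 5 of 5. The neural count was 2 with either GFP+ array left out. Germ cell markers, a class in which Prdm14 is also used, passed as higher in 4 of 6 cases and as lower in 1, but 0 passed without GFP+ replicate 1 and 2 as higher without GFP+ replicate 2. Of these germ cell markers, 2 of the 6 were above the median in GFP- cells and 0 in GFP+ cells. Dppa3 was also counted among the other naive state markers, Tfap2c among trophoblast markers and Prdm1 among the relatives. The counts of these lists are therefore not separate. Dazl, which passed as higher, was near background on all arrays. The part of these cells in the values of the naive state factors was not tested.

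**Figure D5:**
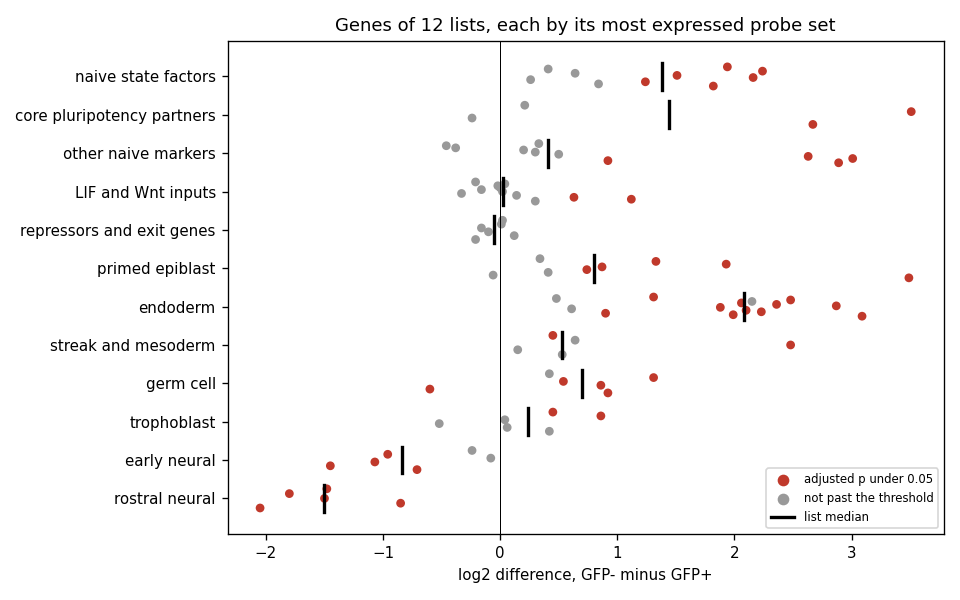
Log2 difference, GFP- minus GFP+ (horizontal axis), of the genes of 12 lists, with 1 probe set a gene (the most expressed), in red where the adjusted p was under 0.05, with a black bar at each list median. The median is 1.38 for the naive state factors, 1.44 for the core partners, 0.02 for the LIF and Wnt inputs, 2.08 for endoderm and -1.50 for rostral markers.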

How the data were processed

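RNA of sorted Rax::GFP- and Rax::GFP+ cells was hybridized to Affymetrix Mouse Genome arrays. The authors deposited log2 values per probe set made by RMA, which corrects the background, gives all arrays a common distribution and summarizes each probe set, with R 2.13.0 named in the submitters' processing notes. Such values do not show whether the groups differed in total RNA. The platform annotation gave 1 symbol to 34958 probe sets and several to 932, of which 0 included a member, and 9211 were unnamed here.

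All 45101 probe sets were fitted as 2 groups with limma 3.58.1 (R 4.3.3), with 2 residual degrees of freedom, a prior of 2.52, no filter and no replicate block, and its two-sided p-values were given a Benjamini-Hochberg adjustment, with a threshold of 0.05. The fit was run on simulated data with independent errors, variances drawn from the prior it had estimated, and no pairing of arrays. Its assumptions held there by construction, so the run cannot check them for these arrays. The fit included the array's 64 control probe sets, of which 0 passed. A gene was taken by its probe set with the highest mean over the 4 arrays. All 10 members were named with every probe set. Of every other list, the text names at most 3 genes that passed, by size of difference, and at most 2 that did not, by mean level, with Rax, Six3, Irx3, Gapdh and Actb. Stat3, Socs3, Esrra, Esrrg, Nr0b2, Nr5a1, Tfcp2, the Tcl1b genes and Mtcp1, and the immediate early genes, were added after their values were seen. The members and all lists were chosen with earlier results of these data known, so no list was tested. Listed genes not measured here included Klf8, Tcl1b2, Tcl1b5, T and Nanos3. No genome was used, and promoters came from a RefSeq table, which had none for Klf5, Tbx3 and Prdm14.

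As alternatives, the fit was repeated with a block for the replicate number, Storey's q-values, a filter that keeps log2 values of at least 5 on at least 2 arrays, median centring, quantile normalization, an intensity trend, array weights, leaving out control probe sets or each array, and averaging over a gene's probe sets. Where a group was left with 1 array, its spread was taken from the other group.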

Additional observations from a re-analysis of the deposited data

How the results depend on the processing

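No member passed as lower under any alternative, and the filter, median centring, quantile normalization, array weights and leaving out the control probe sets kept the counts at 10 probe sets and 6 genes. For the filter, this is no independent check of some calls. The probe sets of Tbx3, Nr0b1 and Tcl1 past the threshold, and Nr5a2 1456521_at, had both GFP+ values under 5. The filter kept them through the GFP- arrays alone, the group in which they were higher. Storey's q-value gave 12 probe sets and 7 genes, and the intensity trend 11 and 7, with Prdm14 past the threshold in both (0.04 and 0.0389). With each gene averaged over its probe sets, 9 of the 10 genes passed as higher (8.96% of all genes did), all but Klf4 (adjusted p = 0.28). The median difference was 0.82. Prdm14, with 1 probe set that averaging cannot change, was among the 9 because the fit was adjusted over genes. With the replicate number as a block, 0 member probe sets and 0 member genes passed in limma. The count was also 0 for genes of the other lists in either direction and for all 45101 probe sets. In that fit 14 member probe sets had an unadjusted p under 0.05, where 11019 of all 45101 did. The smallest adjusted p of a member was 0.0567. Over all probe sets, replicates with the same number did not deviate together (r = -0.0514). This cannot settle whether a number marks a shared experiment, which no label states. Some gene lists went the same way in both groups. Replicate 1 was above replicate 2 at 0 of 14 endoderm markers in GFP+ cells and at 2 in GFP- cells. For the 14 immediate early genes the counts were 13 and 10. Other lists went different ways, such as the other naive state markers (4 and 7 of 10). The block was kept as an alternative. With 1 array left out, the count ran from 0 to 9 for member probe sets, 0 to 5 for member genes, 0 to 28 for genes of the other lists that were higher and 0 to 7 for those that were lower (31 and 11 with all arrays), and the median difference ran from 1.25 to 1.51. The lowest counts came from leaving out either GFP- array, where the spread was taken from the GFP+ arrays alone. A gap over 1 was found at 0.264% of probe sets between the GFP+ arrays and at 0.0266% between the GFP- arrays. The part of this in the counts was not tested. Without GFP+ replicate 1, 19 genes of the other lists were higher and 7 lower, and without GFP+ replicate 2, 7 were lower. The intensity trend gave 17 lower. Over the whole array 3367 probe sets passed, 6163 with Storey's q-value, 6962 with the intensity trend and 820 without GFP+ replicate 1. The sign changed at 5 probe sets near background: Tfcp2l1 1460715_x_at (-0.0079, quantile normalization) and, with 1 array left out, Klf5 1430255_at (-0.0031 to 0.089, below 0 without GFP+ replicate 1), Klf5 1451739_at (-0.004 to 0.22, below 0 without GFP+ replicate 2), Tbx3 1445757_at (-0.19 to 0.089, above 0 without GFP+ replicate 2) and Tbx3 1439567_at (-0.014 to 0.18, below 0 without GFP- replicate 2). The causes of these changes were not tested. Signal limits the reading of the dim members: 16 of the 24 member probe sets passed the filter on low values.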

Other observations

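Of the primitive streak and mesoderm markers, 2 were above the array median in GFP- cells and 0 in GFP+ cells. Of 5 measured streak and mesoderm markers 2 passed as higher in GFP- cells. Eomes, a T-box factor of the streak that endoderm also needs, had 8.65 and 8.30 in GFP- cells, against 5.85 and 6.15 in GFP+ cells (difference 2.48, adjusted p = 0.0083). Evx1, a posterior streak homeobox gene, had 4.88 ± 0.08 in GFP- cells and 4.43 ± 0.03 in GFP+ cells (SD, n = 2 each, adjusted p = 0.0475). Evx1 was near background on all arrays. Mesp1 and Mixl1, which mark streak-derived mesoderm and endoderm, did not pass, at 0.15 (adjusted p = 0.408) and 0.53 (adjusted p = 0.353). Of 6 trophoblast markers 2 passed as higher, Tfap2c (0.86, adjusted p = 0.0124) and Krt7 (0.45, adjusted p = 0.0459). Tfap2c was also counted as a germ cell marker. Krt7 was near background on all arrays. Of the 6 markers, 1 was above the array median in GFP- cells and 1 in GFP+ cells. Without GFP+ replicate 1 the counts that passed were 1 of the streak and mesoderm markers and 0 of the trophoblast markers. Among the germ cell markers Ddx4 differed by 1.31 (adjusted p = 0.042) and Dppa3 by 0.92 (adjusted p = 0.029).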
